A study of Mus musculus with 24 samples.

Results

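The genes described here are 31 subunits of voltage-gated sodium channels, voltage-gated calcium channels and HCN channels. They were chosen by name, as the rows of the deposited count table whose Ensembl identifier carries 1 of 31 gene symbols, and they make up 31 of the 55401 gene identifiers in that table. RNA came from the nucleus accumbens of mice, a ventral part of the striatum that is built mainly of GABAergic medium spiny neurons, and mRNA of the whole tissue was sequenced. The mice had undergone spared nerve injury (SNI) in its tibial form, used to model neuropathic pain, at the sciatic nerve of the left side, or a sham operation in which no nerve was touched. An AAV8 vector with the hSyn promoter, which is active in neurons, had been injected into the accumbens on both sides and carried Mef2c with Egfp or Egfp alone. Mef2c encodes an activity-dependent transcription factor of neurons.

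The 24 libraries form 4 groups of 6, named by surgery and vector as SNI Mef2c, SNI Gfp, Sham Mef2c and Sham Gfp. All groups, controls included, had received an AAV vector with Egfp, and mice were 8 to 9 weeks old when obtained. The injury was on the left, while the punched tissue was taken from both sides. The mice were C57BL/6J or DBA/2J, and which library came from which strain is not given in the sources used here. Libraries are not tied to mice in the labels, so a p-value here weighs a difference against library-to-library spread only, which may be technical. The S-numbers in the labels run by group, so any order of preparation that followed them cannot be told apart from the groups.

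Sodium channels carry the rising phase of the action potential, and each consists of a large pore subunit with smaller beta subunits that shape its gating and its place in the membrane. Calcium channels of the high voltage activated kind join a pore subunit to a beta and an alpha2delta subunit and serve transmitter release and signalling to the nucleus, while T-type pores open near rest. HCN channels open on hyperpolarization and set the resting potential and its rhythm, and most members of the gamma family now act in neurons as partners of AMPA receptors.

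Library totals lay between 25477019 and 36570108 counts, and the 31 genes took 0.483 to 0.620% of them. Every one of the 31 passed the filter on low counts. Values are given as CPM, counts scaled to a common library total with TMM factors. Mef2c, the gene on the vector, stood at 474, 550.3 and 832 CPM (lowest, median and highest library) in SNI Mef2c and at 133, 152 and 221 CPM in SNI Gfp, and it rose by 1.86 on the log2 scale (SE 0.26, edgeR adjusted p = 0.00627). In the libraries labelled Sham Mef2c it stood at 123, 229 and 469 CPM, against 139, 168 and 212 CPM in Sham Gfp, a log2 fold change of 0.52 (SE 0.25, edgeR adjusted p = 0.229). The libraries labelled Sham Mef2c 2 and 5 had less Mef2c than any Sham Gfp library, so statements on the vector in sham mice rest on the labels. SNI Mef2c library 1 stood apart from its group in tissue markers: its mean log2 CPM over 16 medium spiny neuron markers was 6.13, the lowest of all 24 libraries, and over 16 cortical neuron markers 5.88, the highest. For channel genes described singly in comparisons with SNI Mef2c, fold changes are given with and without it. Counts by unadjusted p or by direction, marker levels, intervals and covariate fits are given with it alone.

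Reads were counted over whole gene spans, introns included and without regard to strand, which matters for genes with long introns and for genes that overlap others. Introns made up 62.1% of the span in Scn2b and 98.9% in Cacna2d3, the lowest and highest shares among the 31 genes. Scn2b (chromosome 9, 45117782 to 45130070, mm10) lies wholly inside Gm10684, a non-coding gene on the other strand with 128456 counts against 127824 for Scn2b, so its values are uncertain. The counts of the overlapping A430018G15Rik came to 56.1% of those of Cacnb4, and those of Dcp1a, Dcp1b, A730060N03Rik and Gm44151 came to 24.8% of Cacna1d, 23.3% of Cacna1c, 19.2% of Cacng2 and 17.97% of Cacng8. For the other 25 genes the largest overlapping gene had at most 7.11% of the counts, the value for Cacna1a. Several members are neighbours in the genome. Scn3a, Scn2a and Scn1a lie side by side on chromosome 2 between 65457118 and 66440840, Cacng7 and Cacng8 on chromosome 7 between 3332955 and 3415648, Cacng4 and Cacng5 on chromosome 11 between 107732357 and 107915055, and Scn2b and Scn4b on chromosome 9 between 45117782 and 45154152.

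Promoter sequences from RefSeq (GRCm38.p6), 250 bases before to 50 bases after a start site, were found for 24 of the 31 genes, with 35 start sites. Shown are those of the member with the highest level (Scn4b), of an alpha2delta subunit that followed the medium spiny markers most closely (Cacna2d3), of the highest and lowest HCN channels (Hcn2 and Hcn4) and of the most abundant sodium channel pore (Scn2a, the first of its 2 start sites). Capitals mark matches on either strand to the CCAAT box, the core GGGCGG of the GC box, the TATA element TATAAA, the cyclic AMP response element TGACGTCA or the MEF2 consensus, and this start of Scn2a has none.
Scn4b: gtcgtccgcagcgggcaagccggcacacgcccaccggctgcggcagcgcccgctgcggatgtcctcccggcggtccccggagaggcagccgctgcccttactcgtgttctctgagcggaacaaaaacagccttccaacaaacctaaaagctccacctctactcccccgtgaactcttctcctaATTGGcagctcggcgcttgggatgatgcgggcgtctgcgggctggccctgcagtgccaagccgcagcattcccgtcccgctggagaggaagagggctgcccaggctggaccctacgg
Cacna2d3: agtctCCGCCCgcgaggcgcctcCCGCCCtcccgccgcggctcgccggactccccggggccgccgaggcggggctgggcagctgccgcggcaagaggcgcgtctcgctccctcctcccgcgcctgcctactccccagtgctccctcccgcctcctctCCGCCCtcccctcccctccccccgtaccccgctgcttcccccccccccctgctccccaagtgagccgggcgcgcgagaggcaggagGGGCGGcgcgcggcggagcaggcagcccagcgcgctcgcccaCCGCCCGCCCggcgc
Hcn2: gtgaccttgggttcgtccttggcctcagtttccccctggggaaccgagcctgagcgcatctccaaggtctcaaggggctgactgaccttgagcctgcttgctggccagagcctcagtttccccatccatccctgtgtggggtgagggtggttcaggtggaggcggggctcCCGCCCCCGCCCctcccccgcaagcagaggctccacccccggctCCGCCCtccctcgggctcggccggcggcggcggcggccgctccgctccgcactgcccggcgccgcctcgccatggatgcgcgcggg
Hcn4: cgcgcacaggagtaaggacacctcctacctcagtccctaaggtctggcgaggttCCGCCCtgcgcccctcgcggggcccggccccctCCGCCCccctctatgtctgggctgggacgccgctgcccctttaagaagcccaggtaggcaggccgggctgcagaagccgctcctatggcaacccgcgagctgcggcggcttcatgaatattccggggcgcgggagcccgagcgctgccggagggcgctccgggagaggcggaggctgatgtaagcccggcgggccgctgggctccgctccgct
Scn2a: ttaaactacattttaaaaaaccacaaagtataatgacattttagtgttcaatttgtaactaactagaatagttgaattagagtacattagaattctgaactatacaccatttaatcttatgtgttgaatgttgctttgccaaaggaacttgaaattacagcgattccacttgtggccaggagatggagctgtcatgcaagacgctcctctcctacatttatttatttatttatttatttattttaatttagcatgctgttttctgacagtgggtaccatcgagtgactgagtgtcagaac
They lie on the plus strand at chr9:45138374-45138673 (Scn4b), the minus strand at chr14:29721815-29722114 (Cacna2d3), and the plus strand at chr10:79716384-79716683 (Hcn2), chr9:58822699-58822998 (Hcn4) and chr2:65620519-65620818 (Scn2a). Their letters differ widely: the GC content is 81.3% for Cacna2d3, 72.3% for Hcn2, 71.7% for Hcn4 and 66.3% for Scn4b, but 33.0% for this start of Scn2a, the lowest of the 35. Over the 35 member promoters the median GC content was 62.0%, against 52.7% over all 32851 promoters in the table. GGGCGG was in 15 of the 35 (42.9%), against 35.7% of all promoters, and CCAAT was in 9 (25.7%), against 37.4%. TATAAA was in 2 of the 35 (5.71%), against 13.6% of all promoters. It can lie inside a match to the MEF2 consensus, while the other motifs cannot. No member promoter held the MEF2 consensus or TGACGTCA, which stood in 3.19 and 1.79% of all promoters. The cyclic AMP response element TGACGTCA reads the same on both strands. A match is a description of these windows only.

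Levels of different genes were compared as CPM per kilobase of exon, and give the make-up of each channel class over all 24 libraries (mean ± SD, n = 24). Because intronic reads are in the counts, this scale overstates genes with long introns, and the deposited FPKM, which divides by the whole span, understates them. Among the 4 sodium channel pores, Scn2a, the pore of Nav1.2, stood highest at 28.7 ± 2.62 CPM per kilobase. Scn8a, the pore of Nav1.6 at the axon initial segment and nodes, had 20.97 ± 3.40, and Scn1a, the pore of Nav1.1 typical of fast-spiking interneurons, had 18.4 ± 4.28. Scn3a, the pore of Nav1.3 that is prominent before birth, had 10.1 ± 0.95. As shares of their sum, Scn2a took 36.8 ± 2.83%, Scn8a 26.7 ± 2.07%, Scn1a 23.5 ± 4.32% and Scn3a 13.05 ± 1.67%. The means of Scn8a and Scn1a differed by less than the larger of their SDs.

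Scn4b, the beta subunit tied to resurgent sodium current and abundant in striatal projection neurons, was the highest of all 31 genes on this scale, at 81.9 ± 32.0 CPM per kilobase. It also had the widest range, 36.0 to 140.3 over the 24 libraries. Scn2b and Scn3b, the other beta subunits measured, had 36.2 ± 3.48 and 35.5 ± 2.26. Scn4b thus took 51.4 ± 9.53% of the 3 beta subunits, and it ranked first in the deposited FPKM as well. By group its share was 59.6 ± 3.42% in SNI Mef2c, 51.3 ± 8.86% in SNI Gfp, 44.8 ± 10.6% in Sham Mef2c and 49.9 ± 8.96% in Sham Gfp (SD, n = 6 each). No test was made of these shares, and the ranges of the 4 groups overlapped.

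Among the calcium channel pores, Cacna1b, the N-type pore of release sites, and Cacna1e, the R-type pore, were nearly level at 23.4 ± 1.41 and 22.9 ± 3.50 CPM per kilobase. Cacna1a, the P/Q-type pore, had 18.1 ± 2.60. The T-type pore Cacna1h had 17.2 ± 3.30, Cacna1i 11.6 ± 2.50 and Cacna1g 8.03 ± 2.91. The L-type pores Cacna1d and Cacna1c, which couple depolarization to gene expression, had 10.4 ± 0.97 and 8.72 ± 1.35. As shares of the 8 pores, Cacna1b took 19.5 ± 1.45%, Cacna1e 18.99 ± 2.09% and Cacna1g 6.76 ± 2.52%, the lowest on this scale. The order of the pores depended on the length used. In the deposited FPKM Cacna1h was the highest pore at 2.82, followed by Cacna1b at 1.46, Cacna1g at 1.23 and Cacna1e at 1.17. Cacna1d was the lowest there, at 0.290.

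Of the calcium channel beta subunits, which carry the pore to the membrane, Cacnb3 and Cacnb1 stood at 38.1 ± 8.75 and 36.7 ± 4.66 CPM per kilobase, close to level. Cacnb4 had 19.3 ± 3.01 and Cacnb2 had 6.93 ± 0.84, or 6.97 ± 1.04% of the class. Of the alpha2delta subunits, Cacna2d2 and Cacna2d3 were again near each other at 31.1 ± 8.77 and 30.5 ± 7.67. Cacna2d1, the main binding site of gabapentin, had 15.03 ± 3.17. Cacna2d3 shows what the length does: it ranked 11 of 31 per kilobase of exon but 28 of 31 in the deposited FPKM, where its mean was 0.325.

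In the gamma family, Cacng7 led with 66.7 ± 11.3 CPM per kilobase, or 36.4 ± 4.01% of the 6 genes. Cacng3 had 37.2 ± 4.23, Cacng8 32.5 ± 3.36 and Cacng4 26.6 ± 3.75. Cacng2, which encodes stargazin, had 12.4 ± 2.48 and Cacng5 had 7.15 ± 1.31. Hcn2, a channel of fast cyclic AMP response, had 49.6 ± 7.98 and took 83.6 ± 2.65% of the 3 HCN channels listed. Hcn3 had 7.08 ± 2.02, and Hcn4, best known as the pacemaker channel of the heart, had 2.75 ± 0.78. That was the lowest of the 31 genes on this scale, while Cacnb2 was the lowest in the deposited FPKM.

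When the 31 genes were put in order of level per kilobase, the gap between neighbours was larger than the larger of their SDs in 4 of 30 pairs. These were Cacng7 above Hcn2, Hcn2 above Cacnb3, Scn3a above Cacna1c and Cacnb2 above Hcn4. In the other 26 pairs the gap was within the larger SD. This rule describes spread between libraries and is not a test of the means.

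**Figure D1:**
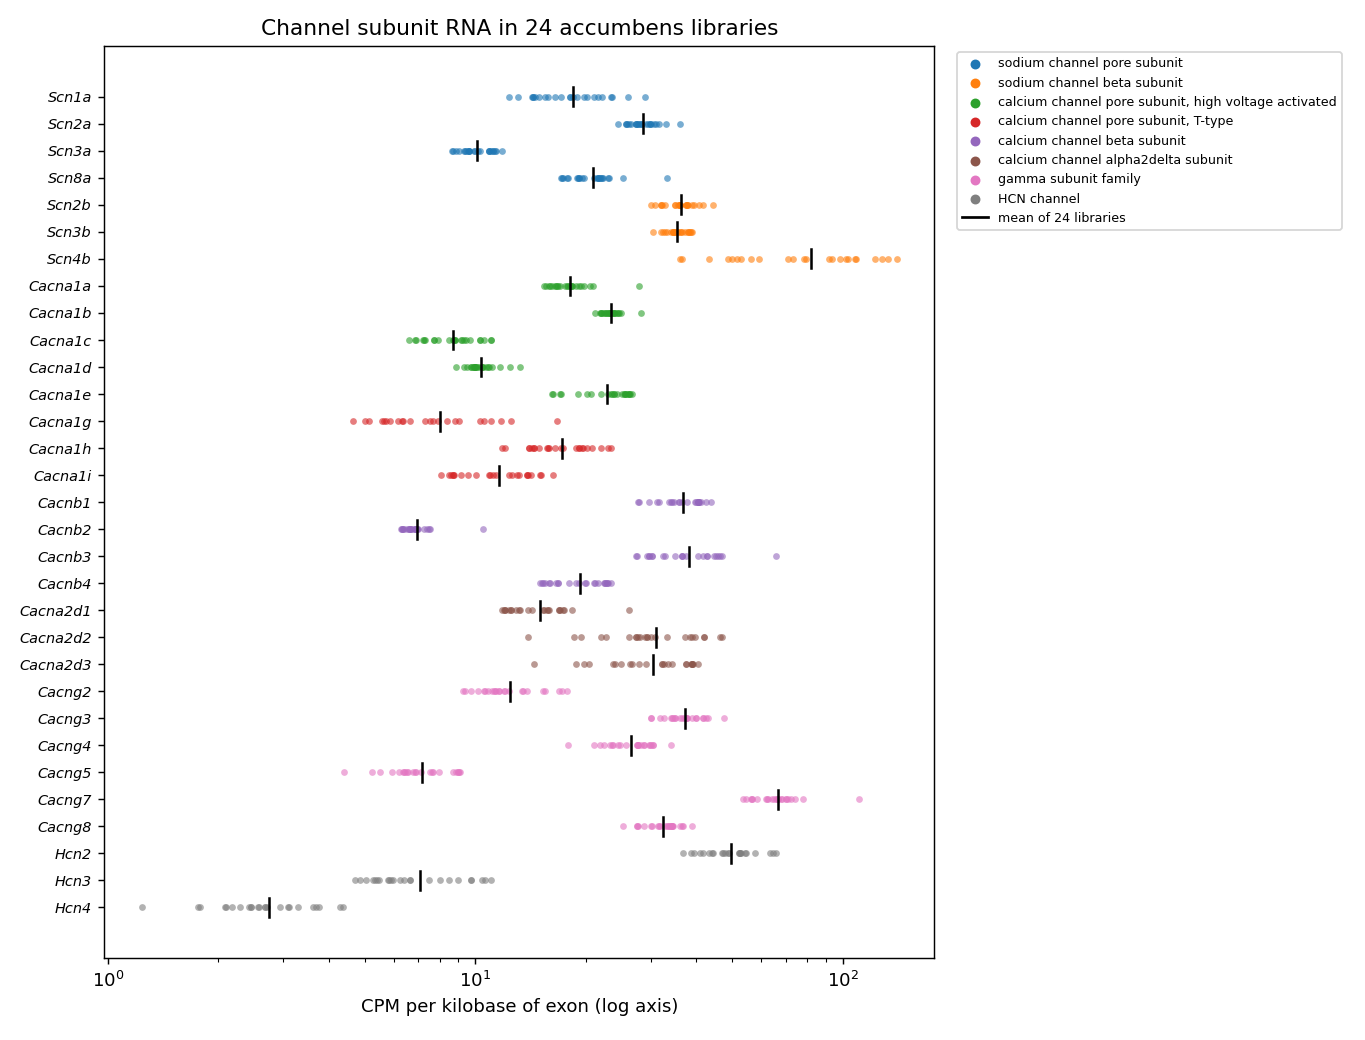
Level of each of the 31 channel subunits in each of the 24 libraries, as CPM per kilobase of exon on a log axis. Points are libraries, black bars are the mean over 24 libraries and colours mark the class of subunit. Scn4b is highest at 81.9 and most widely spread, and Hcn4 is lowest at 2.75.

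The first comparison asked how the Mef2c vector differed from the Gfp vector in injured mice. None of the 31 channel genes passed the threshold of 0.05, where edgeR called 1 of 23738 genes, or 0.00421%, and that gene was Mef2c. DESeq2 called 1 of the 31, Scn2a, and 1.85% of all genes. Of the 31 genes, 24 had a value above 0 and 7 below, with a median log2 fold change of 0.15, against 0.00 over all genes tested. The values ran between -0.41 for Hcn3 and 0.51 for Scn4b, and 5 of the 31 (16.1%) had an unadjusted p under 0.05, against 14.3% of all genes. Without SNI Mef2c library 1 the unadjusted edgeR p was 0.068 for Cacna1i and 0.143 for Cacnb3, no longer under 0.05. It stayed under 0.05 for Scn2a and Cacna2d1. The 4 genes with the smallest p follow as values that did not pass.

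Scn2a stood at 371, 399 and 458 CPM in SNI Mef2c, against 328, 348 and 382 CPM in SNI Gfp. The groups overlapped, with 4 of 6 SNI Mef2c libraries above the highest SNI Gfp library. Its log2 fold change was 0.21 (SE 0.06, edgeR adjusted p = 0.124), and the adjusted p ranged between 0.0256, with DESeq2, and 0.446 over the settings tried. Without SNI Mef2c library 1, its highest, the value was 0.17 (edgeR adjusted p = 0.152). Cacna2d1 stood at 191, 214 and 326 CPM in SNI Mef2c, against 149.6, 171 and 196 CPM in SNI Gfp. All but 1 of the SNI Mef2c libraries were above the highest SNI Gfp library. The log2 fold change was 0.41 (SE 0.13, edgeR adjusted p = 0.169), and 0.28 without SNI Mef2c library 1, the highest (edgeR adjusted p = 0.209).

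Cacna1i stood at 112, 137 and 161 CPM in SNI Mef2c, against 84.8, 101 and 148 CPM in SNI Gfp, with 2 of 6 libraries above the highest of SNI Gfp. Its log2 fold change was 0.35 (SE 0.15, edgeR adjusted p = 0.312), and 0.31 without SNI Mef2c library 1 (edgeR adjusted p = 0.323). Cacnb3 stood at 147, 177 and 264 CPM in SNI Mef2c, against 121, 136 and 186 CPM in SNI Gfp, again with 2 of 6 above. The log2 fold change was 0.34 (SE 0.15, edgeR adjusted p = 0.325), and 0.22 without SNI Mef2c library 1 (edgeR adjusted p = 0.425).

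Tissue markers differed in level in this comparison too, and none of those given here passed the threshold. Of 16 cortical neuron markers, all detected, 13 had a value above 0, and their summed level was 526 to 2709 CPM in SNI Mef2c, against 450 to 1483 CPM in SNI Gfp. With the mean of these markers as a covariate, the log2 fold changes were 0.14 for Scn2a, 0.25 for Cacna2d1, 0.20 for Cacna1i and 0.14 for Cacnb3. Medium spiny markers had a value above 0 in 16 of 16, with sums of 2129 to 6153 CPM in SNI Mef2c, against 2740 to 5782 CPM in SNI Gfp. Interferon response genes had a value below 0 in 12 of 12, with a median of -2.05 and sums of 41.7 to 61.9 CPM in SNI Mef2c, against 47.2 to 617 CPM in SNI Gfp. Lymphocyte markers were below 0 in 9 of 10 (31.6 to 40.5 CPM in SNI Mef2c, against 21.9 to 87.6 CPM in SNI Gfp), microglia markers in 12 of 12 (549.5 to 635 CPM, against 531 to 1548 CPM in SNI Gfp) and oligodendrocyte markers in 10 of 10 (2383 to 4192 CPM, against 3036 to 4131 CPM in SNI Gfp). The part of these last 4 lists in the channel values was not tested. In bulk tissue, fewer cells of a type and less RNA per cell cannot be told apart.

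**Figure D2:**
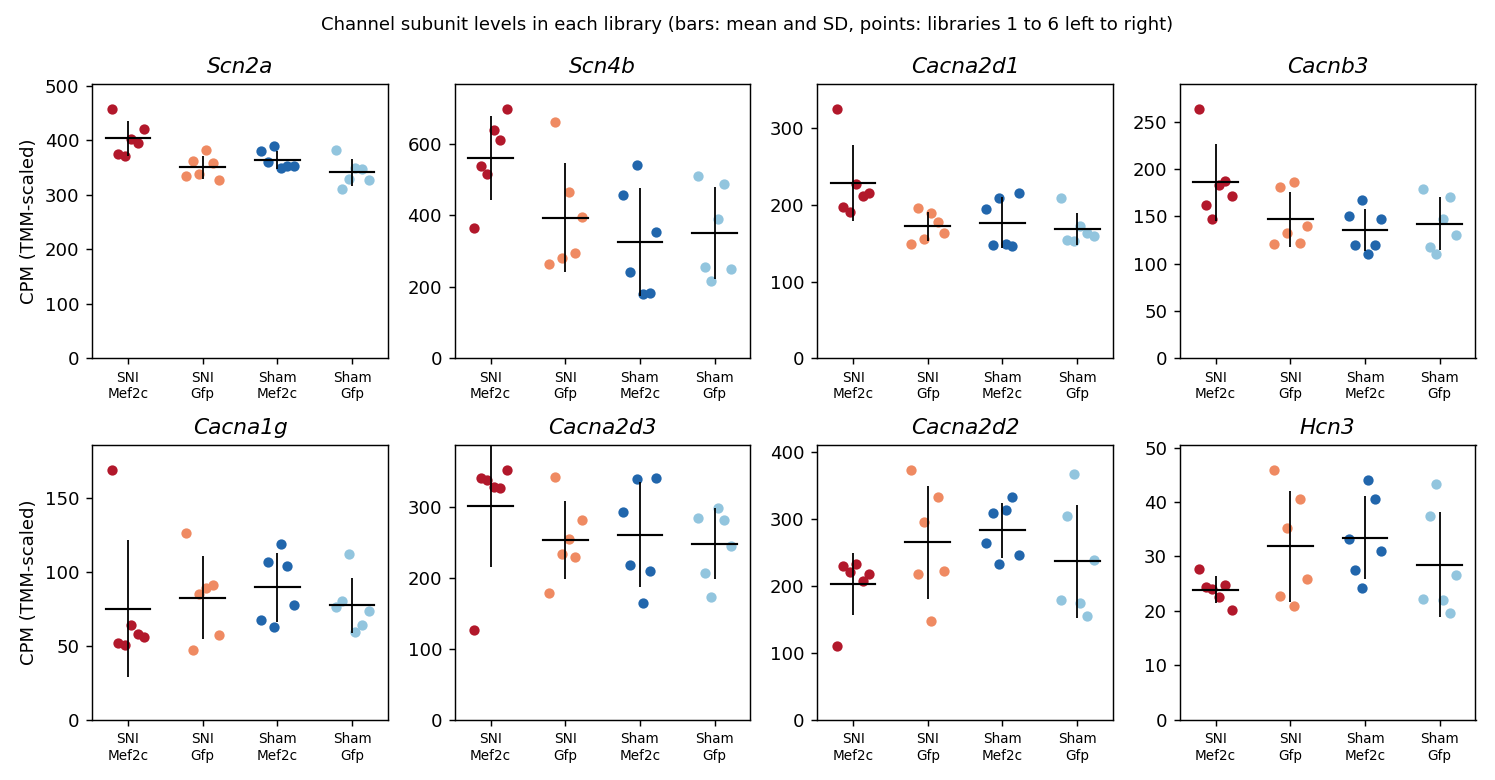
Level of 8 channel subunits in CPM in each library, with libraries 1 to 6 of each group placed left to right, a horizontal bar for the mean and a vertical bar for the SD (n = 6). SNI Mef2c library 1 is the highest of its group for Scn2a, Cacna2d1, Cacnb3, Cacna1g and Hcn3 and the lowest for Scn4b, Cacna2d3 and Cacna2d2.

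In sham mice the Mef2c vector was again set against the Gfp vector. edgeR called 2233 genes, or 9.41% of those tested, and none of the 31 channel genes was among them. Limma-voom called 4 of the 31, against 18.7% of all genes, and the cortical covariate gave 1 of the 31, against 8.62%. Cortical and medium spiny covariates together gave 2 of the 31, against 12.5% of all genes. Of the 31 genes, 24 had a value above 0 (21 with libraries scaled by their size alone, and 31 with cortical markers, or cortical and medium spiny markers, as covariates), the median was 0.07, against 0.02 over all genes, and the values ran between -0.11 for Scn4b and 0.30 for Hcn4. An unadjusted p under 0.05 was found for 3 of 31 (9.68%), against 21.2% of all genes.

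Scn3b stood at 189, 204 and 209 CPM in the libraries labelled Sham Mef2c, against 177, 184 and 194 CPM in Sham Gfp. All but 1 of the Sham Mef2c libraries were above the highest Sham Gfp library, but the size was small, at 0.13 on the log2 scale (SE 0.05, edgeR adjusted p = 0.133). Without SNI Mef2c library 1, which enters through the shared estimate of spread, the value stayed at 0.13 and the edgeR adjusted p was 0.0228. That was 1 of the 31, in a fit that called 11.2% of all genes. Scn2b stood at 162, 168 and 189.8 CPM in Sham Mef2c, against 139.9, 151 and 168 CPM in Sham Gfp, with 4 of 6 libraries above. The log2 fold change was 0.17 (SE 0.07, edgeR adjusted p = 0.139), and its whole span lies inside Gm10684.

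Cacng5 stood at 21.04, 28.3 and 34.3 CPM in Sham Mef2c, against 16.8, 23.3 and 28.9 CPM in Sham Gfp, with 3 of 6 above. Its log2 fold change was 0.30 (SE 0.13, edgeR adjusted p = 0.197). Scn2a stood at 349, 357 and 391 CPM in Sham Mef2c, against 311, 339 and 382 CPM in Sham Gfp, with 1 of 6 above. The log2 fold change was 0.10 (SE 0.06, edgeR adjusted p = 0.347), and 0.15 with cortical markers as a covariate (edgeR adjusted p = 0.0102). The summed cortical markers were 447 to 702 CPM in Sham Mef2c, against 460 to 1027 CPM in Sham Gfp, with 5 of 16 above 0.

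Immune markers were lower in this comparison. All 12 interferon response genes were called lower in Sham Mef2c, with sums of 41.3 to 59.2 CPM, against 281 to 1088 CPM in Sham Gfp, as were 10 of 12 microglia markers (518 to 1077 CPM, against 1072 to 1996 CPM) and 9 of 10 lymphocyte markers (15.2 to 34.4 CPM, against 33.8 to 129.9 CPM). Their part in the channel values was not tested.

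The third comparison asked what nerve injury did under the Gfp vector. edgeR called none of 23738 genes (0%), with 2928 at an unadjusted p under 0.05, where DESeq2 called 553 and limma-voom 2794. None of the 31 channel genes passed with edgeR, and limma-voom called 1 of the 31, against 11.8% of all genes. Of them 27 had a value above 0 (25 with libraries scaled by their size alone), with a median of 0.05, against 0.01 over all genes, and 1 of 31 (3.23%) had an unadjusted p under 0.05, against 12.3% of all genes.

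That gene was Cacng5, at 24.3, 25.5 and 34.4 CPM in SNI Gfp, against 16.8, 23.3 and 28.9 CPM in Sham Gfp. Its groups overlapped, and its log2 fold change was 0.29 (SE 0.13, edgeR adjusted p = 0.361). Scn2b stood at 149.6, 171 and 176 CPM in SNI Gfp, against 139.9, 151 and 168 CPM in Sham Gfp, with 4 of 6 above, and its log2 fold change was 0.12 (SE 0.07, edgeR adjusted p = 0.508). The groups of Scn2b overlapped as well. Hcn2 stood at 126, 168 and 209.8 CPM in SNI Gfp, against 118, 136 and 202 CPM in Sham Gfp, with 1 of 6 above, and its log2 fold change was 0.19 (SE 0.13, edgeR adjusted p = 0.645). With limma-voom and quality weights it was 0.35 (adjusted p = 0.0355). Cacng2 stood at 53.7, 69.0 and 97.8 CPM in SNI Gfp, against 51.0, 57.8 and 93.4 CPM in Sham Gfp, with 1 of 6 above, and its log2 fold change was 0.18 (SE 0.15, edgeR adjusted p = 0.717). Interferon response genes had a value below 0 in 12 of 12, with sums of 47.2 to 617 CPM in SNI Gfp, against 281 to 1088 CPM in Sham Gfp. Microglia and lymphocyte markers were below 0 in 12 of 12 and 10 of 10, and the part of these lists was not tested.

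The fourth comparison set injured mice against sham mice under the Mef2c vector. Mef2c itself stood at 474, 550.3 and 832 CPM in SNI Mef2c, against 123, 229 and 469 CPM in the libraries labelled Sham Mef2c. All 6 SNI Mef2c libraries lay above the highest of Sham Mef2c. The log2 fold change of Mef2c was 1.33 (SE 0.25, edgeR adjusted p = 0.223). Surgery and Mef2c level thus cannot be told apart here, and the part of Mef2c in the channel values was not tested. edgeR again called none of 23738 genes (0%), with 3816 at an unadjusted p under 0.05, where DESeq2 called 13 and limma-voom none. None of the 31 channel genes passed. An unadjusted p under 0.05 was found for 16.1% of all genes and 38.9% of 36 other genes that act with these channels. It was found for 50% of 16 cortical markers and 6.25% of 16 medium spiny markers. With cortical markers as a covariate it was found for 1426 of all genes in place of 3816. Without that covariate it was found for 10 of the 31 channel genes (32.3%), which were not recounted with it. Those above 0 were Scn2a, Scn8a, Scn4b, Cacna1h, Cacna1i, Cacnb1, Cacnb3 and Cacna2d1, and those below 0 were Cacna2d2 and Hcn3. Without SNI Mef2c library 1 the unadjusted edgeR p was 0.0503 for Scn2a and 0.120 for Cacna2d2, no longer under 0.05. It stayed under 0.05 for Scn4b, Cacna1i, Cacnb3, Cacna2d1 and Hcn3. Scn8a, Cacna1h and Cacnb1 are given with that library only, which was the highest of its group for Scn8a and the lowest for Cacnb1. Over the 31 genes 22 values were above 0, with a median of 0.12, against 0.00 over all genes.

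Cacnb3 stood at 147, 177 and 264 CPM in SNI Mef2c, against 110.3, 133 and 167 CPM in the libraries labelled Sham Mef2c, with 4 of 6 SNI Mef2c libraries above. Its log2 fold change was 0.45 (SE 0.15, edgeR adjusted p = 0.223), and 0.33 without SNI Mef2c library 1 (edgeR adjusted p = 0.297). Cacna2d1 stood at 191, 214 and 326 CPM in SNI Mef2c, against 147, 172 and 216 CPM in Sham Mef2c, with 3 of 6 above and a log2 fold change of 0.36 (SE 0.13, edgeR adjusted p = 0.223). Without SNI Mef2c library 1 it was 0.24 (edgeR adjusted p = 0.311). Both genes had overlapping groups.

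Cacna1i stood at 112, 137 and 161 CPM in SNI Mef2c, against 79.4, 97.3 and 139.6 CPM in Sham Mef2c, with 2 of 6 above. The log2 fold change was 0.42 (SE 0.15, edgeR adjusted p = 0.229), and 0.38 without SNI Mef2c library 1 (edgeR adjusted p = 0.295). Scn2a stood at 371, 399 and 458 CPM in SNI Mef2c, against 349, 357 and 391 CPM in Sham Mef2c, with 4 of 6 above. The log2 fold change was 0.15 (SE 0.06, edgeR adjusted p = 0.229), and 0.11 without that library (edgeR adjusted p = 0.320).

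Scn4b had the largest value of the 31, a log2 fold change of 0.78 (SE 0.29, edgeR adjusted p = 0.229). It stood at 364, 574 and 699 CPM in SNI Mef2c, against 179, 298 and 541 CPM in Sham Mef2c, with 3 of 6 above. Here SNI Mef2c library 1 was the lowest of its group, and without it the value was 0.88 (edgeR adjusted p = 0.293). Hcn3 had the lowest value, -0.48 (SE 0.21, edgeR adjusted p = 0.261), at 20.2, 24.2 and 27.6 CPM in SNI Mef2c, against 24.2, 32.2 and 44.1 CPM in Sham Mef2c. Without SNI Mef2c library 1 it was -0.53 (edgeR adjusted p = 0.295). Cacna2d2 stood at 111, 219 and 233 CPM in SNI Mef2c, against 233, 287 and 333 CPM in Sham Mef2c, and nearly parted the groups. All but 1 of its SNI Mef2c libraries lay below the lowest Sham Mef2c library, with a log2 fold change of -0.48 (SE 0.23, edgeR adjusted p = 0.304), and -0.35 without SNI Mef2c library 1 (edgeR adjusted p = 0.426).

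Regional markers also differed in level here, and none of them passed the threshold. Of 16 cortical markers 15 had a value above 0, and their sums were 526 to 2709 CPM in SNI Mef2c, against 447 to 702 CPM in Sham Mef2c. Of 12 septal and thalamic markers 10 had a value below 0, with sums of 261 to 458 CPM, against 368 to 682 CPM in Sham Mef2c. Of 16 medium spiny markers 15 had a value above 0, with a median of 0.40 and sums of 2129 to 6153 CPM in SNI Mef2c, against 2294 to 5375 CPM in Sham Mef2c. With the cortical markers as a covariate the log2 fold changes were 0.21 for Cacnb3, 0.19 for Cacna2d1, 0.24 for Cacna1i, 0.07 for Scn2a, 0.60 for Scn4b, -0.24 for Hcn3 and -0.15 for Cacna2d2. With medium spiny markers added as a second covariate they were 0.40 for Scn4b, -0.11 for Hcn3, 0.18 for Cacna1i, 0.19 for Cacnb3, 0.19 for Cacna2d1, 0.07 for Scn2a and -0.11 for Cacna2d2.

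The interaction asked whether the vector difference itself differed between injured and sham mice. Mef2c itself had an interaction of 1.34 (SE 0.35, edgeR adjusted p = 0.313), and its part in the channel values was not tested. edgeR called none of 23738 genes (0%), with 3529 at an unadjusted p under 0.05, where DESeq2 called 1 and limma-voom 4120. None of the 31 channel genes passed with edgeR, and limma-voom called 6 of the 31, against 17.4% of all genes. Of the 31, 2 (6.45%) had an unadjusted p under 0.05, against 14.9% of all genes. The value was above 0 for 19 of 31, and for 6 of 31 with cortical and medium spiny markers as covariates. Hcn3 had an interaction of -0.64 (SE 0.29, edgeR adjusted p = 0.327), and -0.19 with those covariates. Cacng2 had -0.45 (SE 0.21, edgeR adjusted p = 0.328), and -0.24 with the covariates. Cacna2d2 had -0.64 (SE 0.32, edgeR adjusted p = 0.347), and -0.075 with the covariates. Cacnb3 had 0.41 (SE 0.22, edgeR adjusted p = 0.366), and -0.0035 with the covariates. Without SNI Mef2c library 1 the values were -0.69 for Hcn3, -0.46 for Cacng2, -0.52 for Cacna2d2 and 0.28 for Cacnb3.

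The levels behind these values overlapped between every pair of groups. Hcn3 stood at 20.2, 24.2 and 27.6 CPM in SNI Mef2c, against 20.9, 30.5 and 45.9 CPM in SNI Gfp, and at 24.2, 32.2 and 44.1 CPM in Sham Mef2c, against 19.5, 24.4 and 43.2 CPM in Sham Gfp. Cacng2 stood at 58.1, 61.8 and 66.3 CPM in SNI Mef2c, against 53.7, 69.0 and 97.8 CPM in SNI Gfp, and at 62.1, 72.2 and 94.9 CPM in Sham Mef2c, against 51.0, 57.8 and 93.4 CPM in Sham Gfp. For both genes the median was lower with the Mef2c vector in SNI mice and higher with it in sham mice. Cacna2d2 stood at 111, 219 and 233 CPM in SNI Mef2c, against 147, 259.5 and 373 CPM in SNI Gfp, and at 233, 287 and 333 CPM in Sham Mef2c, against 155, 209 and 368 CPM in Sham Gfp. Cacnb3 stood at 147, 177 and 264 CPM in SNI Mef2c, against 121, 136 and 186 CPM in SNI Gfp, and at 110.3, 133 and 167 CPM in Sham Mef2c, against 109.9, 138 and 179 CPM in Sham Gfp. Cacna2d2 had the same order of medians as Hcn3 and Cacng2, and Cacnb3 the opposite one.

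How large a difference these data leave room for varied by gene. The approximate 95% interval stayed within a 1.5-fold difference either way for 22 of 31 genes between SNI Mef2c and SNI Gfp, 26 between Sham Mef2c and Sham Gfp, 26 between SNI Gfp and Sham Gfp and 21 between SNI Mef2c and Sham Mef2c. It stayed within 2-fold for 30, 31, 31 and 30 genes in the same order, and Scn4b was the exception in both cases. Cacna1b, the N-type pore, was the most tightly bounded, with an interval of 0.10 on the log2 scale to either side, and Scn4b the least, with 0.60 to 0.61. A p that misses the threshold does not show that the groups were alike.

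**Figure D3:**
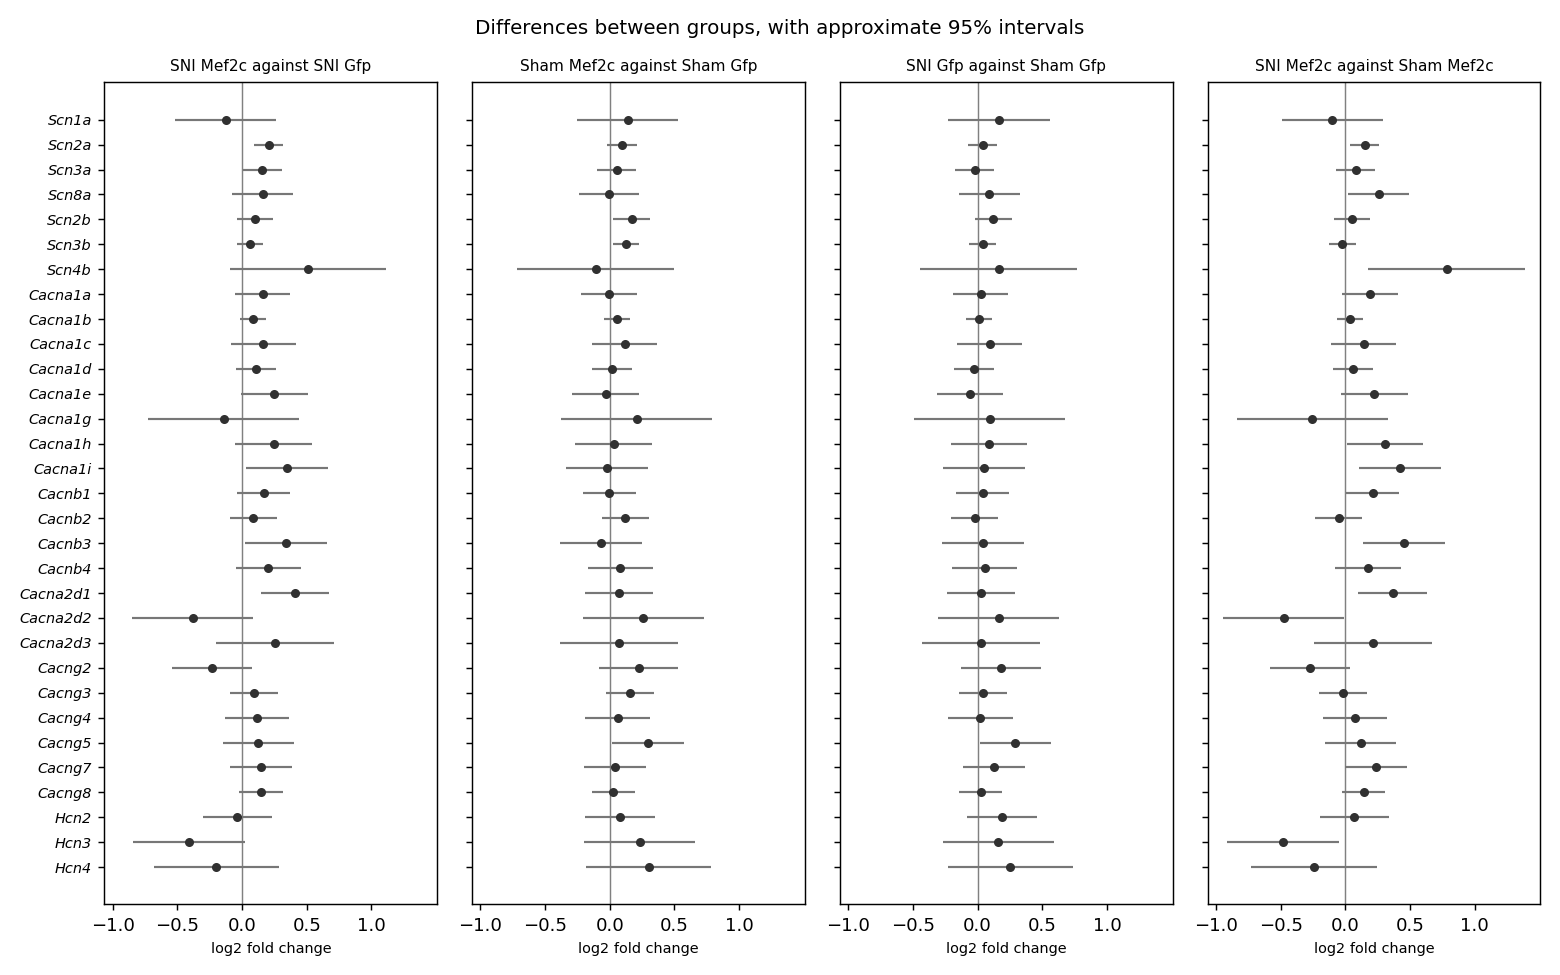
Log2 fold change of each channel subunit in 4 comparisons, with approximate 95% intervals from the edgeR model on 24 libraries. Tested groups are named first in each title, so values right of 0 are higher there. Scn4b has the widest interval and Cacna1b the narrowest, and none of the 31 genes passed the threshold in any panel.

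Of 37 other genes that act with these channels, 36 could be tested, and Scn4a, with 56 counts in all, could not. Between SNI Mef2c and SNI Gfp none passed, and the smallest p belonged to Calm2, which encodes calmodulin, the calcium sensor of these channels. Calm2 had 741 ± 56.7 CPM in SNI Mef2c and 643 ± 50.5 CPM in SNI Gfp (SD, n = 6 each), a log2 fold change of 0.21 (SE 0.06, edgeR adjusted p = 0.168).

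Nalcn, the sodium leak channel, was the gene that passed, between Sham Mef2c and Sham Gfp, where 9.41% of all genes were called. It had 203 ± 9.39 CPM in the libraries labelled Sham Mef2c and 173 ± 18.5 CPM in Sham Gfp (SD, n = 6 each) and rose by 0.23 on the log2 scale (SE 0.07, edgeR adjusted p = 0.0464). The call was lost on leaving out any 1 of 10 of the 12 compared libraries, all but library 3 of each group, and any 1 of 6 of the 12 SNI libraries, which enter through the shared estimate of spread. The edgeR adjusted p was then at most 0.140, without Sham Gfp library 5, and it was 0.110 with libraries scaled by their size alone. None of the 36 passed in the other comparisons. Between SNI Gfp and Sham Gfp the smallest p belonged to Cacna1f (log2 fold change -0.43, edgeR adjusted p = 0.355) and Rrad (-0.43, edgeR adjusted p = 0.503). Between SNI Mef2c and Sham Mef2c it belonged to Calm2 (0.21) and Cacng6 (1.01), both with an edgeR adjusted p of 0.223, and in the interaction to Nalcn (-0.28) and Cacng6 (1.09), both with 0.313 by edgeR. Cacna1f, Rrad and Cacng6 had low counts. Cacna1f had 1.18 ± 0.31 CPM in SNI Gfp and 1.58 ± 0.22 CPM in Sham Gfp, and Rrad 1.18 ± 0.44 and 1.60 ± 0.35 CPM. Cacng6 had 3.04 ± 1.95 CPM in SNI Mef2c, with a range of 1.52 to 6.87 CPM, and 1.50 ± 0.44 CPM in Sham Mef2c (SD, n = 6 each).

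Within groups the channel genes also varied between libraries. The SD of log2 CPM within groups had a median of 0.22 over the 31 genes and 0.20 over all genes tested. It was widest for Scn4b (0.53), Cacna1g (0.49), Hcn4 (0.43), Cacna2d3 (0.42) and Cacna2d2 (0.42), and narrowest for Cacna1b (0.08), Scn3b (0.08) and Scn2a (0.09). After group means were removed, the first principal component of the 31 genes took 59.6% of their variance and the second 18.9%. Scn4b, Cacna2d3, Cacna1e and Cacna1i stood at one end of the first, and Cacna1g, Hcn4, Hcn3 and Scn1a at the other. How much a first component takes in other sets of genes was not computed.

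Each gene was then set beside 14 lists of cell type and state markers, as the correlation of its log2 CPM with the mean of the list over the 24 libraries after group means were removed. Of 434 such relations, 111 had an adjusted p under 0.05 by permutation within groups. Both values come from the same library, so its depth and tissue content are shared by them. By the highest Pearson r, 13 genes lay nearest to medium spiny neurons, 7 to cortical neurons, 7 to neurons in general, 2 to septal and thalamic neurons, 1 to oligodendrocyte precursors and 1 to endothelium. The best r was over 0.7 for 23 of the 31 genes. The counts of 111 and 23 were not computed for other genes, so they are not shown to be particular to the channel genes. In the permutation tests 1e-05 is the smallest p that 100000 draws can give, and it stands for an adjusted p of 0.000241 for r and 0.000289 for rho.

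Cacna2d3 followed the medium spiny markers most closely of all, with a Pearson r of 0.97 (permutation p = 1e-05, adjusted 0.000241) and a Spearman rho of 0.90 (permutation p = 1e-05, adjusted 0.000289). Without the 2 libraries farthest in those markers, SNI Mef2c 1 and Sham Gfp 3, its r was 0.95. Scn4b had r = 0.84 and rho = 0.92 with the same list, with the same p-values, and r = 0.94 without those 2 libraries. Cacnb4, Cacng4, Scn3a and Cacnb1 had r of 0.90, 0.90, 0.85 and 0.83 and rho of 0.89, 0.84, 0.86 and 0.90, each with those p-values, and r of 0.93, 0.78, 0.78 and 0.93 without the 2 libraries. Scn3b, Cacna1e, Cacna1c, Cacng3, Cacna1h, Scn2b and Cacnb2 were also nearest to this list, with r between 0.36 for Cacnb2 and 0.78 for Scn3b, and of these Scn2b and Cacnb2 had adjusted permutation p-values of 0.156 and 0.161.

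Cacna1g ran the other way. Its r with the medium spiny markers was -0.93 and its rho -0.86 (permutation p = 1e-05 for each), and r was -0.85 without SNI Mef2c 1 and Sham Gfp 3. It followed the neuron markers in general, with r = 0.83 (permutation p = 1e-05, adjusted 0.000241) and rho = 0.78 (permutation p = 3.0e-05, adjusted 0.000685), and r = 0.77 without the 2 farthest libraries. Hcn2 followed that list most closely, with r = 0.95 and rho = 0.93 (permutation p = 1e-05 for each) and r = 0.96 without SNI Mef2c 1 and Sham Gfp 5. Scn1a, Hcn4, Cacng7, Cacng2 and Scn8a were nearest to the same list, with r of 0.84, 0.81, 0.85, 0.79 and 0.71 and rho of 0.84, 0.85, 0.82, 0.77 and 0.61. Without those 2 libraries their r was 0.89, 0.86, 0.82, 0.92 and 0.60, and the largest adjusted permutation p among them was 0.0209, for the rho of Scn8a. Scn1a also had r = 0.77 with oligodendrocyte markers (adjusted permutation p = 0.000804) and -0.61 with medium spiny markers (adjusted permutation p = 0.00639). In each of the 4 groups the library highest in the general neuron list was the lowest in medium spiny markers. In SNI Mef2c 1 the means were 8.86 and 6.13. The part of the medium spiny level in these r was not tested.

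Cacnb3 followed the cortical markers, with r = 0.88 and rho = 0.89 (permutation p = 1e-05 for each) and r = 0.85 without SNI Gfp 4 and SNI Mef2c 1. Scn2a had r = 0.81 (permutation p = 2.0e-05, adjusted 0.000413) and rho = 0.78 (permutation p = 1.0e-04, adjusted 0.00167) with that list, and r = 0.71 without those 2 libraries. Cacna1a, Cacna2d1, Cacna1i, Cacng8 and Cacna1d were nearest to the cortical list as well, with r of 0.75, 0.75, 0.73, 0.64 and 0.51, rho of 0.75, 0.73, 0.78, 0.68 and 0.50, and r of 0.72, 0.71, 0.76, 0.53 and 0.53 without those 2 libraries. Of these, the first r of Cacna1d had an adjusted permutation p of 0.0583. Cacna2d2 had r = -0.81 and rho = -0.79 with the cortical markers (permutation p = 1e-05 for each), and r = -0.66 without those 2 libraries. It lay nearest to the septal and thalamic list, with r = 0.72 (permutation p = 0.00023, adjusted 0.00232), rho = 0.72 (permutation p = 0.0007, adjusted 0.00596) and r = 0.77 without Sham Mef2c 2 and 4.

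Hcn3 lay nearest to the oligodendrocyte precursor list, with r = 0.85 (permutation p = 1e-05) and rho = 0.82 (permutation p = 5.0e-05, adjusted 0.00103) and r = 0.86 without SNI Mef2c 5 and Sham Gfp 2, and had r = 0.75 with neuron markers in general. Cacng5 (r = 0.31) and Cacna1b (r = 0.37) followed no list past the adjusted threshold of 0.05 among those nearest to them, with adjusted permutation p-values of 0.372 and 0.324, and the r of Cacna1b was -0.10 without 2 libraries.

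**Figure D4:**
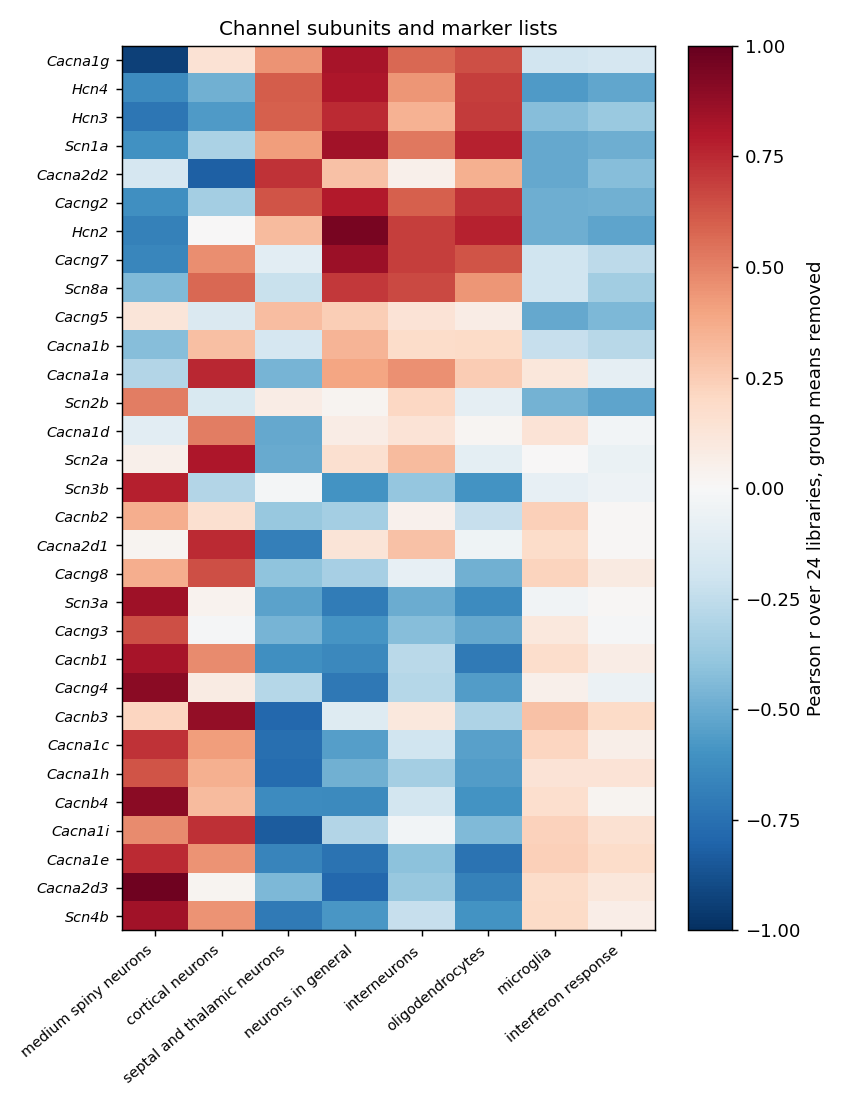
Pearson r between each channel subunit and the mean of 8 of the 14 marker lists over 24 libraries, with group means removed. Genes are in the order of the first component. Red cells mark genes that were high in libraries where the list was high, as for Cacna2d3 and medium spiny markers (0.97), and blue cells the opposite, as for Cacna1g and the same list (-0.93).

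**Figure D5:**
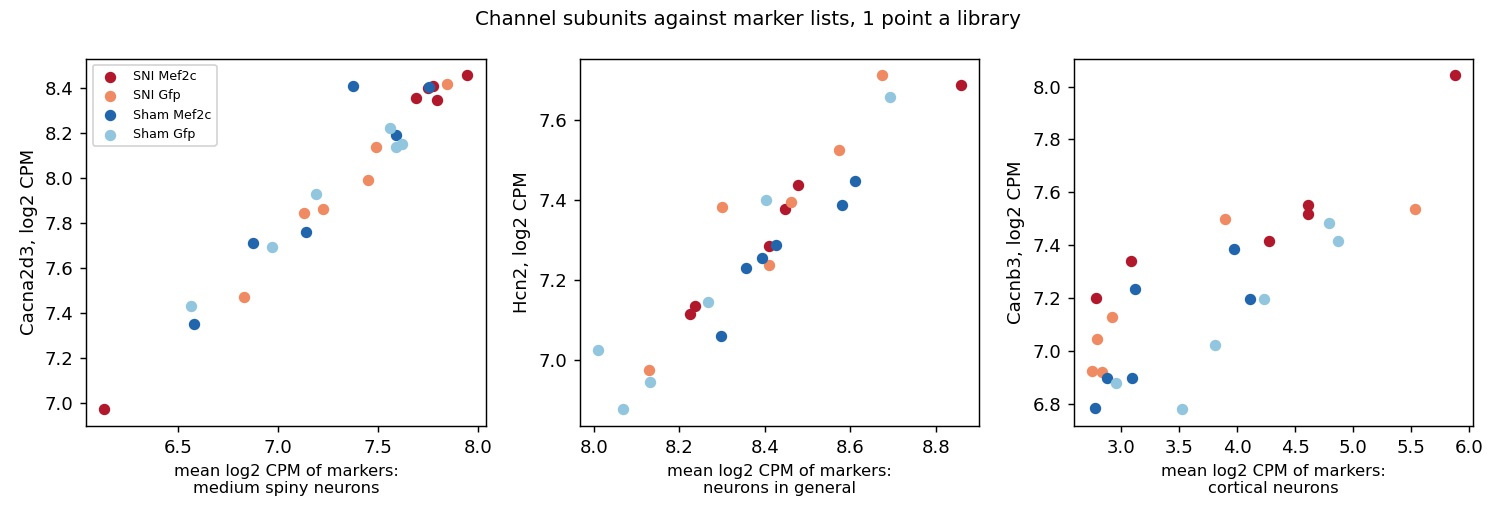
Log2 CPM of 3 channel subunits against the mean log2 CPM of the marker list each was nearest to, 1 point a library, coloured by group. The points of all 4 groups lie along 1 band in the panels for Cacna2d3 and Hcn2. SNI Mef2c library 1 is the lowest point for Cacna2d3 and the highest for Cacnb3.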

How the data were processed

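RNA of 24 accumbens libraries was analysed from 2 deposited tables. The authors deposited raw counts per gene, made with featureCounts on mm10 per the submitters' processing notes, and a table of FPKM. The version of featureCounts, the annotation and any aligner were not given in the sources used here. Deposited FPKM equalled count over library total and gene span for 42625 of 42625 genes compared (relative tolerance 1e-06). Among genes lying inside another, with at least 1000 counts, counts of the enclosing gene never fell below those of the inner one, in 877 of 877 same-strand and 1300 of 1300 opposite-strand pairs, so counts span introns and ignore strand. Symbols came from GENCODE M21 for 55141 of 55401 identifiers, as did exonic lengths.

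Genes were kept by filterByExpr (23738), scaled by TMM, and tested with edgeR 4.0.16 (R 4.3.3), quasi-likelihood, robust, 1 coefficient a group, 20 residual degrees of freedom, two-sided, with Benjamini-Hochberg adjustment over all genes and a threshold of 0.05. Intervals are approximate, from the SE implied by the F statistic. The model was tested on simulated data. Marker means are log2 CPM with a prior count of 2, and their correlations were tested by 100000 permutations within groups, with adjustment over 434 relations. Within groups no pair of libraries was a copy (smallest chi-square per degree of freedom 3.22).

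The members and lists were chosen with earlier results of these data known. All members are named; in each comparison the 4 with the smallest p are given in full, from the other channel genes those past the threshold or otherwise the 2 with the smallest p (1 result under this rule is not reported here), and each member is set beside the marker list with the highest r. Scn4b, Hcn3 and Cacna2d2 in the fourth comparison and the links of Scn1a, Cacna1g and Cacna2d2 to further lists were chosen after their values were seen. Alternatives were RLE scaling, library size alone, 1 CPM in 6 libraries, any count, DESeq2 1.42.0, limma 3.58.1 (voom with quality weights, and trend on log2 FPKM with 1 or 0.1 added), a block for the replicate number, fits to only the groups compared, a cortical marker covariate and leaving out each library. 2 more were chosen after seeing the data: cortical and medium spiny covariates together, and leaving out Sham Mef2c 2 and 5.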

Additional observations from a re-analysis of the deposited data

Results flagged for a closer look

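Each channel gene and Mef2c was examined in each group of 6 for a library whose gap to its nearest neighbour was large for the range of the group (Dixon's 95% limit, which chance passes in about 1 of 20 groups), and 10 of 128 groups passed it. In 7 of them the library was SNI Mef2c 1. It was the highest of its group for Cacna1g, at 169 CPM against 50.9 to 64.3 CPM in the other 5 libraries, for Cacnb3, at 264 CPM against 147 to 188 CPM, for Cacna2d1, at 326 CPM against 191 to 228 CPM, and for Cacng7, at 269.7 CPM against 142 to 190.0 CPM. It was the lowest for Cacna2d3, at 126 CPM against 326 to 351 CPM, for Cacna2d2, at 111 CPM against 208 to 233 CPM, and for Cacnb4, at 143 CPM against 193 to 209.7 CPM. This is the library with the lowest medium spiny and the highest cortical marker mean.

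The other 3 were single genes in other libraries. Cacnb2 stood at 139 CPM in Sham Mef2c 6, against 83.9 to 91.6 CPM in the rest of its group. Cacna2d1 stood at 209.6 CPM in Sham Gfp 1, against 153 to 172 CPM. Cacng7 stood at 131 CPM in Sham Mef2c 2, against 152 to 163 CPM.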

How the results depend on the processing

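No channel gene passed in any comparison with edgeR on all libraries, nor under RLE or library size scaling, other filters on low counts, FPKM, the compared groups alone or without Sham Mef2c 2 and 5. DESeq2 called 1 of the 31 between SNI Mef2c and SNI Gfp (Scn2a; 1.85% of all genes). Between Sham Mef2c and Sham Gfp limma-voom called 4 (Scn3b, Scn2b, Hcn4 and Cacng5; 18.7% of all genes), the cortical covariate 1 (Scn2a, 8.62%), and the cortical and medium spiny covariates 2 (Scn2a and Scn3b, 12.5%). Limma-voom also called 1 between SNI Gfp and Sham Gfp (Hcn2, 11.8% of all genes) and 6 in the interaction (Scn4b higher, and Hcn3, Hcn4, Cacna2d2, Cacna1g and Cacng2 lower, with 17.4% of all genes called). With both covariates the interaction of Cacnb3 was -0.0035. The cause was not tested in any of these. Without 1 library the count was 0 to 1 between Sham Mef2c and Sham Gfp and 0 to 0 elsewhere.

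With the replicate number as a block no channel gene was called in any comparison (0), and the edgeR count over all genes was 1935 in place of 2233 between Sham Mef2c and Sham Gfp. The numbers did not pair the libraries: over 36 same-number pairs r ran between -0.43 and 0.28, and a library correlated best with its own number in 7 of 72 cases of a library set against another group. Over all genes, DESeq2, limma-voom and limma-trend on FPKM with 1 or 0.1 added called 438, 13, 1 and 1 between SNI Mef2c and SNI Gfp (edgeR 1), 2594, 4437, 2180 and 2164 between Sham Mef2c and Sham Gfp (edgeR 2233), and 553, 2794, 742 and 790 between SNI Gfp and Sham Gfp (edgeR 0). Without 1 library edgeR called 1 to 379, 1731 to 3602 and 0 to 1392 in these, 0 to 1 between SNI Mef2c and Sham Mef2c and 0 to 269 in the interaction. In these last 2, where edgeR called 0, DESeq2 called 13 and 1, limma-voom 0 and 4120, and limma-trend with 1 added 1 and 0. Between SNI Gfp and Sham Gfp edgeR called 1 gene in place of 0 with RLE, library size, the CPM filter or the block. The level order depends on the length used: Cacna2d3 ranked 11 of 31 by exonic length and 28 by span, while Scn4b ranked 1 by both. All 31 levels moved by more than their SD between exonic length and span. That follows from the longer span alone and says nothing on the order.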
